A study of Mus musculus with 8 samples.

Results

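The fibrillar collagen genes were examined in ID8 IP2 cells with and without the Notch3 intracellular domain. The 10 genes taken were Col1a1, Col1a2, Col3a1, Col5a1, Col5a2, Col5a3, Col11a1, Col11a2, Col24a1 and Col27a1, taken by symbol as the fibrillar chains, with no threshold on a measured value, out of 23284 gene symbols listed for each library. All 10 symbols were present in every library. Of these, 9 had enough reads to be tested under the edgeR filter and Col11a2, with 0 to 7 counts per library, did not. The fibrillar chain Col2a1, which was not among the 10, had 0 to 3 counts per library.

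ID8 is a line of mouse ovarian surface epithelial cells, and IP2 is a subline of it obtained by passage through mice. All lines also carried luciferase and mCherry. The Notch3IC lines had been infected with a lentivirus that encodes codons 1664 to 2318 of Notch3 followed by an IRES and GFP. The Control lines had been infected with the empty vector, so GFP differed between the groups together with Notch3IC. A set is 1 infection with its matched pair of lines, and polyadenylated RNA of Sets 1 to 4 gave 4 Control and 4 Notch3IC libraries. The promoter that drives Notch3IC is not given in the sources used here. By the study's account, later tests pointed to mycoplasma in all ID8 IP2 lines during the experiments. The lines are infected cells from the same parent, so the p-values below measure the spread between these infections.

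Fibrillar collagens are the rope-like proteins of the extracellular matrix. Their α chains wind into long helices, are secreted as procollagens, lose their end pieces outside the cell and then line up into fibrils. Type I collagen, made of the Col1a1 and Col1a2 chains, is the main collagen of connective tissue, and type III, made of Col3a1 alone, often lies in the same fibrils. Types V and XI (Col5a1, Col5a2, Col5a3, Col11a1, Col11a2) start fibrils and limit their width, while Col24a1 and Col27a1 encode later described chains found mainly in bone and cartilage. In the ovary and peritoneum these proteins form the layer beneath the surface cells. Notch3 is a receptor whose intracellular domain, once released, enters the nucleus and acts with the DNA-binding protein RBPJ.

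The 2 members that passed the test below, Col3a1 and Col5a3, are shown by the sequence just before their transcription starts. These are the 250 bases upstream, from RefSeq on GRCm38.p6, where windows matched 8 of the 10 members, all but Col1a1 and Col5a2. For Col3a1 the window is chr1:45311288-45311537 on the + strand, and for Col5a3 it is chr9:20815068-20815317 on the - strand. Capitals mark matches, found by a search of both strands, to TATAAA for the TATA box, to CCAAT for the box of that name and to GGGCGG for the GC box, which reads CCGCCC where it lies on the opposite strand. The matches in these windows did not overlap.
Col3a1: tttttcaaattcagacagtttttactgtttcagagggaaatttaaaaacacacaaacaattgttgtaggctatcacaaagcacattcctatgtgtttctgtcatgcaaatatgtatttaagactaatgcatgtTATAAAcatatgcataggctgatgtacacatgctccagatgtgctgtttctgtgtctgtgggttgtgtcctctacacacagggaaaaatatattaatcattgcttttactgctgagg
Col5a3: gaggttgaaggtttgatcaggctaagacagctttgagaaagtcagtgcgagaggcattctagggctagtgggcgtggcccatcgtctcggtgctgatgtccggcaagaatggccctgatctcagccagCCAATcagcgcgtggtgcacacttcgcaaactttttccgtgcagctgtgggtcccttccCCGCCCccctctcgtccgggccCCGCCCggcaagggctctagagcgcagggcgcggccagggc
The Col3a1 window had a GC content of 35.2% and held TATAAA at its first base 117 bases before the start. The Col5a3 window had a GC content of 62.8% and held CCAAT 122 bases before the start and GC boxes on the opposite strand at 63 and 41 bases. Among the 8 members with a window, TATAAA occurred in 2, against 12.4% of all 32851 windows of this length, CCAAT in 3, against 33.8%, and GGGCGG in 6, against 32.7%. The core letters TGGGAA, which RBPJ is known to bind, were in 0 of the 8 windows and in 21.6% of all windows. These are matches of letters in short windows and not measured binding sites.

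Library totals were 19013578 to 28208072 counts in Control (median 24255880) and 15524262 to 27107061 in Notch3IC (median 24162246). Notch3 itself had 39, 34, 74 and 53 counts in Control Sets 1 to 4 and 3864, 319, 10026 and 6915 counts in the matched Notch3IC libraries. Every Notch3IC library was therefore above every Control library, with Set 2 far below the other Notch3IC libraries. Within the sets, Notch3 differed by 6.79, 3.51, 7.01 and 7.11 on the log2 scale. The Notch targets Hey1 and Heyl were also higher, by 7.35 (SE 0.99, adjusted p = 0.0169) and 11.56 (SE 1.43, adjusted p = 0.0169) on the log2 scale with edgeR.

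Both Set 1 libraries stood apart from the others. Over all genes, what set the Control library of a set off from the mean Control and what set its Notch3IC partner off from the mean Notch3IC correlated at 0.80 in Set 1 and at 0.40 to 0.57 in the other sets. The summed level of 8 smooth muscle and mural cell markers, most of it Acta2, was 35617 normalized counts in the Set 1 Control library and 2973 to 11287 in the other Control libraries. Among the Notch3IC libraries it was 78763 in Set 1 and 15639 to 23593 in the others. Fold changes of the members and the ratios between chains are therefore also given without Set 1. Normalized counts here are counts scaled to a common library size.

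As a sum, the fibrillar collagens took a larger mean share of the counts in the Notch3IC libraries, a difference that was not tested. Col1a1 alone held 63.9% of their counts in Control and 64.0% in Notch3IC (means over the libraries). Together, the 10 genes took 0.587% ± 0.209 of all counts in the Control libraries and 1.16% ± 0.365 in the Notch3IC libraries (mean ± SD, n = 4 each). The Control libraries ranged from 0.370% to 0.860% and the Notch3IC libraries from 0.801% to 1.64%, so the groups overlapped. The 95% Wilson interval of each of these shares reached at most 0.0052 percentage points to either side, which covers counting error only. In each set the Notch3IC library was higher. In bulk RNA, more cells that express a gene and more RNA per cell cannot be told apart.

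Of the 9 tested genes, 8 had a positive fold change and 2 passed the test, whose limits were 0.1 for the adjusted p and 1 for the size of the log2 fold change. The genes that passed were Col3a1 and Col5a3, both higher in Notch3IC, and no member passed in the other direction. The same test called 3.40% of the 12430 genes tested as higher and 0.740% as lower. The median log2 fold change was 1.01 over the 9 members and -0.01 over all genes tested. With the matched set as a block, 6 members passed, the same pair together with Col1a1, Col1a2, Col5a1 and Col27a1. The share of all genes called rose as well, to 5.19% higher and 2.53% lower. DESeq2 without the block called 4 members, with 5.05% of the genes it tested higher and 1.37% lower. The count with the block was 0 without Set 1, Set 3 or Set 4 and 6 without Set 2, where the calls over all genes, 960 with every set, were 69, 81, 159 and 1330. The count with condition alone dropped to 0 once the Control library of Set 3 or Set 4, the Notch3IC library of Set 4, or the whole of Set 3 or Set 4 was left out. In these fits the calls over all genes, 515 with every library, were 83, 110, 171, 1 and 0, in the same order. Leaving out the Notch3IC library of Set 1 or Set 3 gave 1, and leaving out that of Set 2 gave 5, with 442, 230 and 1007 calls over all genes.

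**Figure D1:**
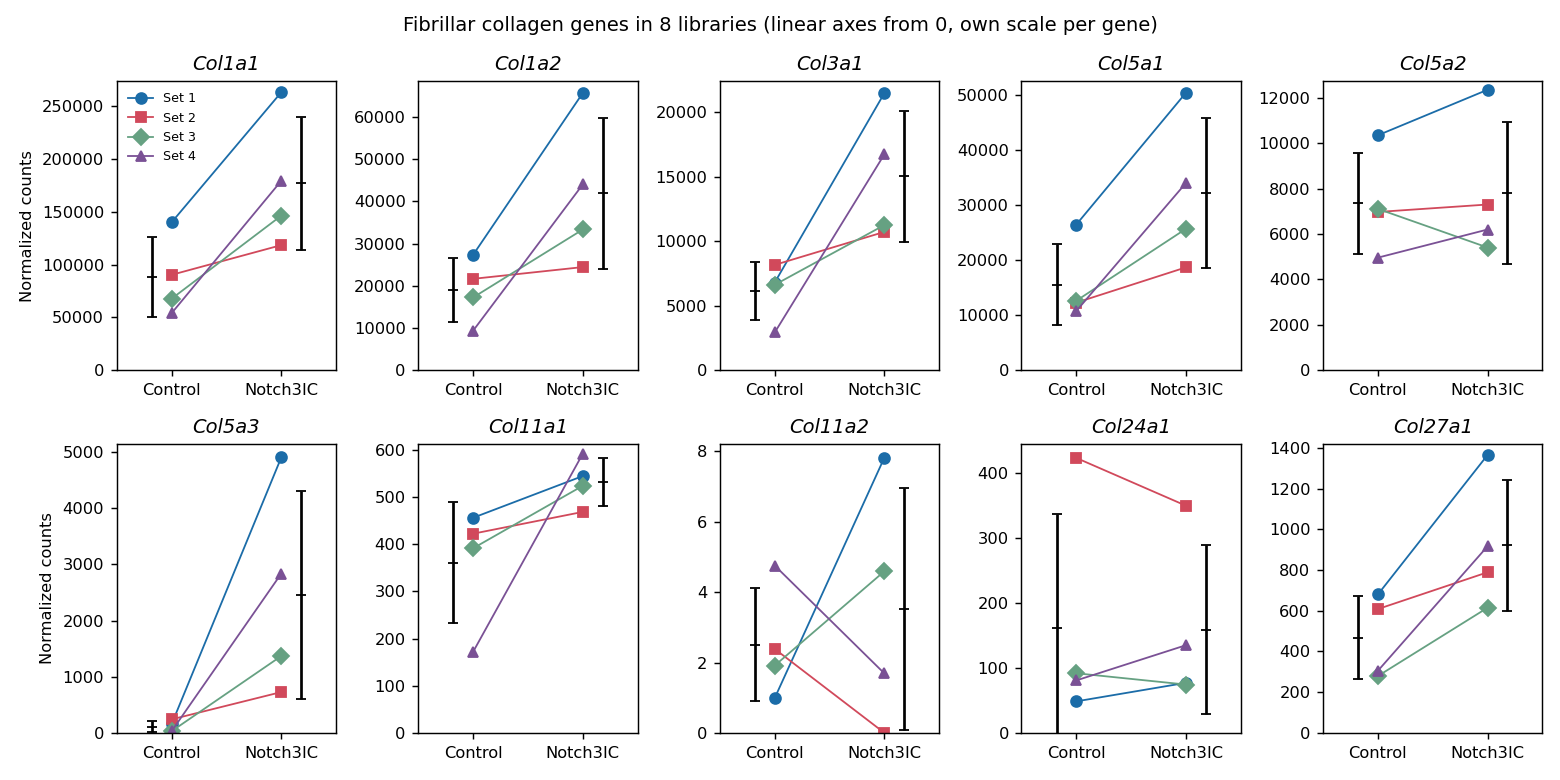
Normalized counts (y axis, own linear scale from 0 for each gene) of the 10 fibrillar collagen genes in the Control and Notch3IC library of each set; a line joins the libraries of 1 set, and bars at the side give mean ± SD (n = 4, clipped at 0 for Col24a1). The lines of Col1a1, Col1a2, Col3a1, Col5a1, Col5a3, Col11a1 and Col27a1 rise in 4 of 4 sets, and Set 1 is the top line for Col1a1, Col1a2, Col5a1, Col5a2 and Col27a1.

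Col1a1 encodes the α1 chain of type I collagen. It had 140107, 90388, 67729 and 53989 normalized counts in Control Sets 1 to 4 and 263449, 118557, 146504 and 179523 in Notch3IC Sets 1 to 4. The Set 1 library was the highest in both groups, and the Set 1 Control exceeded the Set 2 Notch3IC library, so the groups overlapped. The log2 fold change was 1.01 (SE 0.35, edgeR adjusted p = 0.166), which did not pass. With the block it was 1.04 (SE 0.21, edgeR adjusted p = 0.0386). Without Set 1 and with no block, Col1a1 passed at 1.07 (edgeR adjusted p = 0.0738). With no block it did not pass without Set 2, Set 3 or Set 4 (edgeR adjusted p = 0.158, 0.597 and 0.700). With the block it did not pass without Set 1 (1.08, edgeR adjusted p = 0.137), Set 3 or Set 4, and passed without Set 2.

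Col1a2 encodes the α2 chain of type I collagen. It had 27334, 21639, 17227 and 9366 normalized counts in Control and 65668, 24424, 33327 and 44012 in Notch3IC, Sets 1 to 4 in order. Only the Set 2 Notch3IC library fell within the Control range. The log2 fold change was 1.15 (SE 0.38, edgeR adjusted p = 0.154), and 1.15 (SE 0.33, edgeR adjusted p = 0.0708) with the block. Without Set 1 it was 1.08 (edgeR adjusted p = 0.142).

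Col3a1 encodes the chain of type III collagen. It had 6795, 8162, 6620 and 2925 normalized counts in Control and 21484, 10722, 11252 and 16737 in Notch3IC. The groups did not overlap, although the Set 2 libraries, the highest Control and the lowest Notch3IC, lay close together. Col3a1 rose by 1.30 on the log2 scale (SE 0.34, edgeR adjusted p = 0.0818), and by 1.33 (SE 0.37, edgeR adjusted p = 0.0673) with the block. The call was lost without Set 1, at 1.13 (edgeR adjusted p = 0.157), and held without Set 2, at 1.60 (edgeR adjusted p = 0.0595). With no block it was also lost without Set 3 or Set 4 and without any single library other than the 2 of Set 2. Over the fits with no block that lost it, log2 fold changes were 1.01 to 1.45 and edgeR adjusted p-values reached 0.394. With the block it was lost without Set 1, Set 3 or Set 4, at 1.20, 1.53 and 0.94 (edgeR adjusted p = 0.204, 0.190 and 0.193).

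Col5a1 encodes the chain present in nearly all type V collagen. It had 26501, 12295, 12639 and 10774 normalized counts in Control and 50496, 18717, 25735 and 34079 in Notch3IC. Set 1 stood far above the rest in Control, where the other libraries lay between 10774 and 12639, and without it the groups would not overlap. The log2 fold change was 1.05 (SE 0.38, edgeR adjusted p = 0.181), and 1.06 (SE 0.17, edgeR adjusted p = 0.0286) with the block. Without Set 1 and with no block it passed at 1.14 (edgeR adjusted p = 0.0704). With no block it did not pass without Set 2, Set 3 or Set 4 (edgeR adjusted p = 0.164, 0.601 and 0.752). With the block it did not pass without Set 1 (1.09, edgeR adjusted p = 0.126), Set 3 or Set 4, and passed without Set 2.

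Col5a2, the usual partner chain of Col5a1, gave a different picture. It had 10346, 6969, 7104 and 4957 normalized counts in Control and 12351, 7297, 5403 and 6196 in Notch3IC. The groups overlapped almost wholly, and in Set 3 the Notch3IC library was the lower one. The log2 fold change was 0.09 (SE 0.30, edgeR adjusted p = 0.916), and 0.06 (edgeR adjusted p = 0.744) with the block. Its sign turned without Set 1, to -0.01.

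Col5a3 encodes a less widespread type V chain. It had 154, 241, 29.7 and 29.3 normalized counts in Control and 4905, 727, 1369 and 2837 in Notch3IC. The groups were far apart, with the highest Control and the lowest Notch3IC library both from Set 2. Col5a3 rose by 4.46 on the log2 scale (SE 0.88, edgeR adjusted p = 0.0382), and by 4.57 (SE 0.87, edgeR adjusted p = 0.0352) with the block. Without Set 1 it rose by 4.10 (edgeR adjusted p = 0.0872), and without Set 2 by 5.44 (edgeR adjusted p = 0.0167). It rose by 5.13 without the Control library of Set 2 (edgeR adjusted p = 0.0481) and by 3.90 without Notch3IC of Set 1 (edgeR adjusted p = 0.0684). The call was lost without the Control library of Set 3 (4.14, edgeR adjusted p = 0.111) or Set 4 (4.13, edgeR adjusted p = 0.122), without Notch3IC of Set 4 (4.39, edgeR adjusted p = 0.112), and without Set 3 (4.34, edgeR adjusted p = 0.246) or Set 4 (4.05, edgeR adjusted p = 0.322). It was the largest fold change among the 9 members tested.

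Col11a1, a type XI chain, had 456, 422, 391 and 172 normalized counts in Control and 544, 468, 524 and 592 in Notch3IC. The groups did not overlap, but apart from the Set 4 Control library the values lay close together. The log2 fold change was 0.57 (SE 0.27, edgeR adjusted p = 0.317), and 0.64 (edgeR adjusted p = 0.178) with the block. Without Set 1 it was 0.69 (edgeR adjusted p = 0.272). Groups that did not overlap, with Notch3IC higher, were seen for 3 of 9 members (Col3a1, Col5a3 and Col11a1) and for 7.06% of all genes tested. The opposite, with Notch3IC lower, was seen for 0 members and for 3.77% of all genes tested.

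The remaining chains were scarce. Col27a1 had 680, 608, 279 and 305 normalized counts in Control and 1365, 789, 615 and 917 in Notch3IC, overlapping through the Set 3 Notch3IC library. Its log2 fold change was 0.98 (SE 0.35, edgeR adjusted p = 0.183), and 1.03 (SE 0.19, edgeR adjusted p = 0.0332) with the block. Without Set 1 it was 0.96 (edgeR adjusted p = 0.154). Col24a1 had 48.6, 423, 91.9 and 80.8 normalized counts in Control and 77.1, 350, 74.4 and 135 in Notch3IC. Set 2 was high in both groups, and Col24a1 had a log2 fold change of -0.02 (SE 0.77, edgeR adjusted p = 0.994) and of 0.18 (edgeR adjusted p = 0.604) with the block. Without Set 1 it was -0.10 (edgeR adjusted p = 0.959). Col11a2, the second type XI chain, had 1, 2, 2 and 6 counts in Control and 7, 0, 5 and 2 counts in Notch3IC, too few to pass the edgeR filter.

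**Figure D2:**
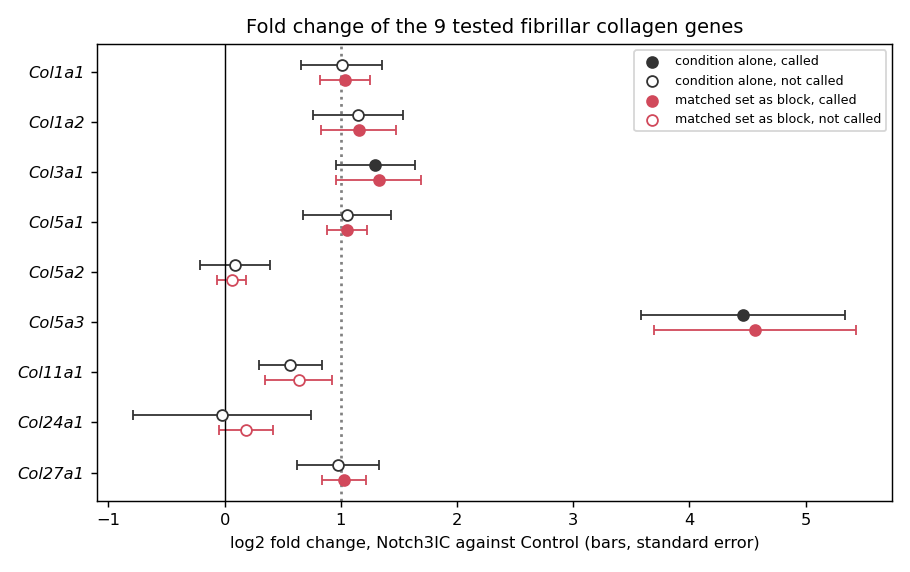
Log2 fold change of Notch3IC against Control (x axis) for the 9 tested fibrillar collagen genes, from the fit with condition alone (grey) and from the block fit by set (red); bars are standard errors, filled points passed the test, and the dotted line marks a log2 fold change of 1. The estimates of both fits lie close together, the block narrows the bars of all but Col3a1 and Col11a1, and Col5a3 is far to the right at 4.46 and 4.57.

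Within the sets, the members moved to different extents. Set 1 had a median log2 ratio of 0.93 over the 9 members, Set 2 of 0.38, Set 3 of 0.95 and Set 4 of 1.73, while the median over all genes tested was between -0.01 and 0.01 in each set. The sets also differed over all genes tested. A log2 ratio of at least 1 was seen for 6.77%, 2.15%, 7.28% and 8.51% of them in Sets 1 to 4. Among the 9 members it was seen for 4, 1, 4 and 7. The count of members that were higher in Notch3IC was 9 in Set 1, 8 in Set 2, 7 in Set 3 and 9 in Set 4. In 4 of 4 sets, 7 of the 9 members were higher, against 21.1% of all genes tested, and Col5a2 and Col24a1 were not. Set 4 gave the highest ratio of the 4 sets for 9 of 9 members and for 24.0% of all genes tested. Its Control library was also the lowest Control for 7 of 9 members. Set 2, where Notch3 was least increased, gave the lowest ratio for 7 of 9 members and for 32.8% of all genes tested.

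Col5a3 had the widest span, with log2 ratios of 4.99, 1.59, 5.51 and 6.58 in Sets 1 to 4. For Col3a1 they were 1.66, 0.39, 0.77 and 2.52. For Col1a1 they were 0.91, 0.39, 1.11 and 1.73, and thus above 1 in Sets 3 and 4 alone. The tested members other than Col5a2 and Col24a1 differed between sets in size but not in direction. Log2 ratios of Col5a1 were 0.93, 0.61, 1.03 and 1.66, the narrowest span among the 6 genes called with the block. Those of Col5a2 were 0.26, 0.07, -0.40 and 0.32, and those of Col24a1 were 0.66, -0.27, -0.30 and 0.74.

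**Figure D3:**
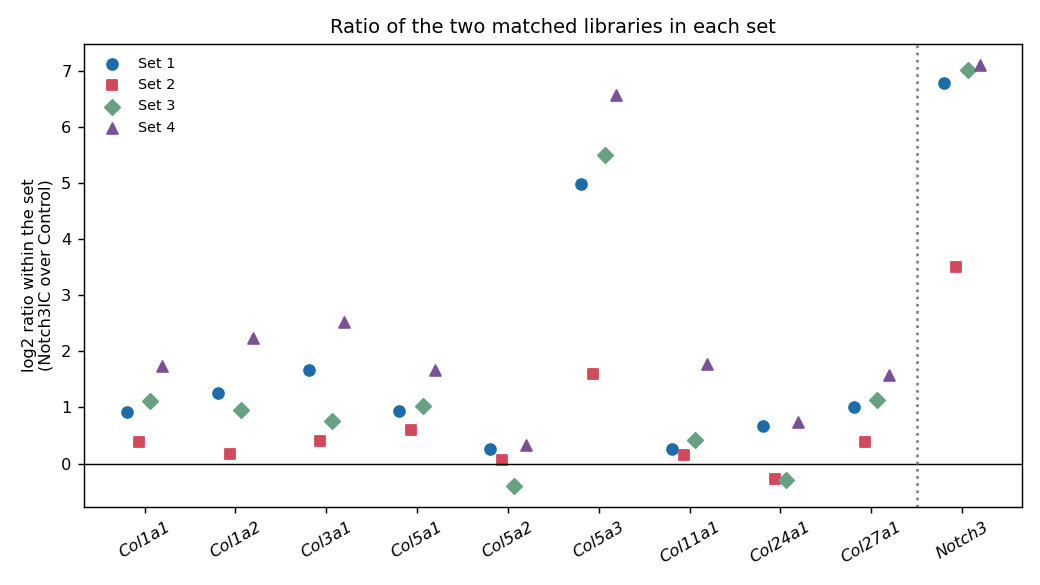
Log2 ratio of Notch3IC to Control within each matched set (y axis) for the 9 tested fibrillar collagen genes and, right of the dotted line, for Notch3; each point is 1 set. Set 4 is the highest point for each collagen, Set 2 is the lowest for 7 of them, and Notch3 is lowest in Set 2 at 3.51.

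The abundance of the chains relative to each other was compared per length, as normalized counts per kilobase of each gene's longest annotated transcript. On this scale Col1a1 was 65.5% ± 2.83 of the summed level of the 10 chains in Control and 65.2% ± 1.33 in Notch3IC (mean ± SD, n = 4 each). Col1a2 followed with a share of 15.6% ± 2.13 in Control and 16.8% ± 1.14 in Notch3IC. Col5a1 had a share of 8.22% ± 1.45 and 8.21% ± 0.581, and Col3a1 of 5.02% ± 1.53 and 5.94% ± 0.516. With all annotated exon bases as length, the Col1a2 share was 8.31% in Control and 8.96% in Notch3IC, below Col5a1 at 10.06% and 10.11%. Col1a1 was still the largest on that scale, at 73.2% in both groups. The shares of these abundant chains overlapped between the groups, while the summed level was higher in the Notch3IC library of each set.

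The shares of the type V chains other than Col5a1 shifted in opposite directions. The share of Col5a2 was 4.48%, 4.48%, 5.79% and 5.55% in Control and 2.68%, 3.65%, 2.19% and 1.98% in Notch3IC. The share of Col5a3 was 0.0720%, 0.168%, 0.0262% and 0.0355% in Control and 1.15%, 0.394%, 0.601% and 0.983% in Notch3IC. Neither chain overlapped between the groups, Col5a2 being lower and Col5a3 higher in each Notch3IC library. Shares sum to a fixed whole, so a chain whose level did not move falls as the rest rise. Col11a1, Col11a2, Col24a1 and Col27a1 each had a mean share of at most 0.273% in either group.

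**Figure D4:**
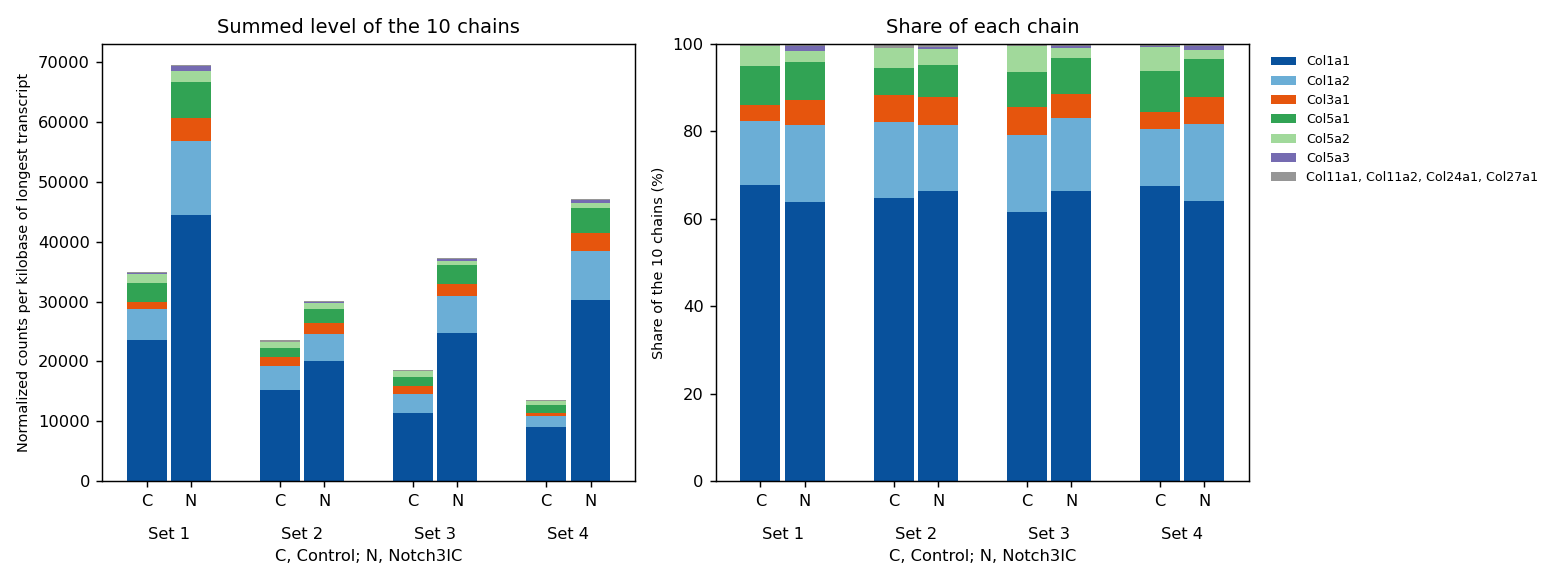
Level of the 10 chains in each library, as normalized counts per kilobase of longest transcript (left, stacked bars from 0), and the percent share of each chain (right); C is Control and N is Notch3IC, and n is 1 library per bar. The right bar of each pair is taller, Col1a1 takes the largest share in each library, and the Col5a2 share is smaller in each Notch3IC library than in each Control library.

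Among all 17110 genes with a level per kilobase, Col1a1 ranked between 19 and 59 in the Control libraries and between 4 and 16 in the Notch3IC libraries, where rank 1 is the highest level. Col1a2 ranked between 176 and 812 in Control and between 44 and 179 in Notch3IC. Col3a1 moved from ranks of 1045 to 3369 to ranks of 281 to 719, and Col5a3 from ranks of 10084 to 12107 to ranks of 2314 to 8167. Col5a2 kept overlapping ranks, 1068 to 2335 in Control and 804 to 2173 in Notch3IC. In the order of mean levels per kilobase of longest transcript in Control, Col1a1 and Col1a2 came first and then Col5a1, Col5a2 and Col3a1. The means of the last chains, 1850 ± 874, 1108 ± 336 and 1101 ± 403 (SD, n = 4), lay within their spread. Within each Control library, however, Col5a1 was above Col5a2. In Notch3IC the order was Col1a1, Col1a2, Col5a1, Col3a1 and Col5a2, with mean levels per kilobase of 3837 ± 1628 for Col5a1, 2705 ± 913 for Col3a1 and 1179 ± 472 for Col5a2. The places of Col1a2 and Col5a1 depend on the lengths used. With all annotated exon bases as length, Col5a1 came before Col1a2, at means of 1832 against 1520 in Control and 3799 against 3369 in Notch3IC.

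Ratios between chains that share a molecule or a fibril were compared within libraries, which removes the scaling between libraries. Tests were exact two-sided permutation tests over the 70 splits of 4 against 4 libraries, where the smallest possible p is 0.0286, with Benjamini-Hochberg adjustment over 5 ratios and a threshold of 0.05. With 2 ratios at that smallest p, neither can fall below an adjusted p of 0.0714, so the adjusted test could not pass them. No ratio passed after adjustment. The permutation test does not use the matching of libraries by set. A paired test, which flips the signs of the differences within sets, allows no p below 0.125 and could not pass any ratio. It gave an adjusted p of 0.3125 for Col5a2 to Col5a1 and for Col5a3 to Col5a1.

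The ratio of Col5a2 to Col5a1 counts was 0.390, 0.567, 0.562 and 0.460 in Control and 0.245, 0.390, 0.210 and 0.182 in Notch3IC. It was lower in Notch3IC in 4 of 4 sets, and the groups met at 0.390 without overlapping. The difference of mean log2 ratios was -0.99 (exact permutation p = 0.0286, adjusted p = 0.0714).

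The ratio of Col5a3 to Col5a1 counts was 0.00582, 0.0196, 0.00238 and 0.00276 in Control and 0.0972, 0.0389, 0.0532 and 0.0833 in Notch3IC. It was higher in 4 of 4 sets and the groups did not overlap. The difference was 3.61 on the log2 scale (exact permutation p = 0.0286, adjusted p = 0.0714). With 1 library or set left out it was between 3.18, without Set 4, and 4.49, without Set 2.

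The Col1a1 to Col1a2 ratio per kilobase was 4.28 ± 0.767 in Control and 3.91 ± 0.347 in Notch3IC (mean ± SD, n = 4 each). It was higher in 2 sets and lower in the other 2, with a log2 difference of -0.12 (exact permutation p = 0.429, adjusted p = 0.429). This ratio depends on the transcript lengths used, being 8.99 and 8.21 when all annotated exon bases count as length, whereas its change between groups does not. For Col3a1 to Col1a1 the log2 difference was 0.30 (exact permutation p = 0.371, adjusted p = 0.429), and for Col11a1 to Col5a1 it was -0.40 (exact permutation p = 0.343, adjusted p = 0.429). The SDs of the log2 ratio were 0.51 in Control and 0.13 in Notch3IC for Col3a1 to Col1a1, and 0.57 and 0.52 for Col11a1 to Col5a1. Without Set 1, where 3 against 3 libraries allow no p below 0.1, the log2 differences were -1.10 for Col5a2 to Col5a1, 3.46 for Col5a3 to Col5a1, -0.04 for Col1a1 to Col1a2, 0.15 for Col3a1 to Col1a1 and -0.31 for Col11a1 to Col5a1.

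**Figure D5:**
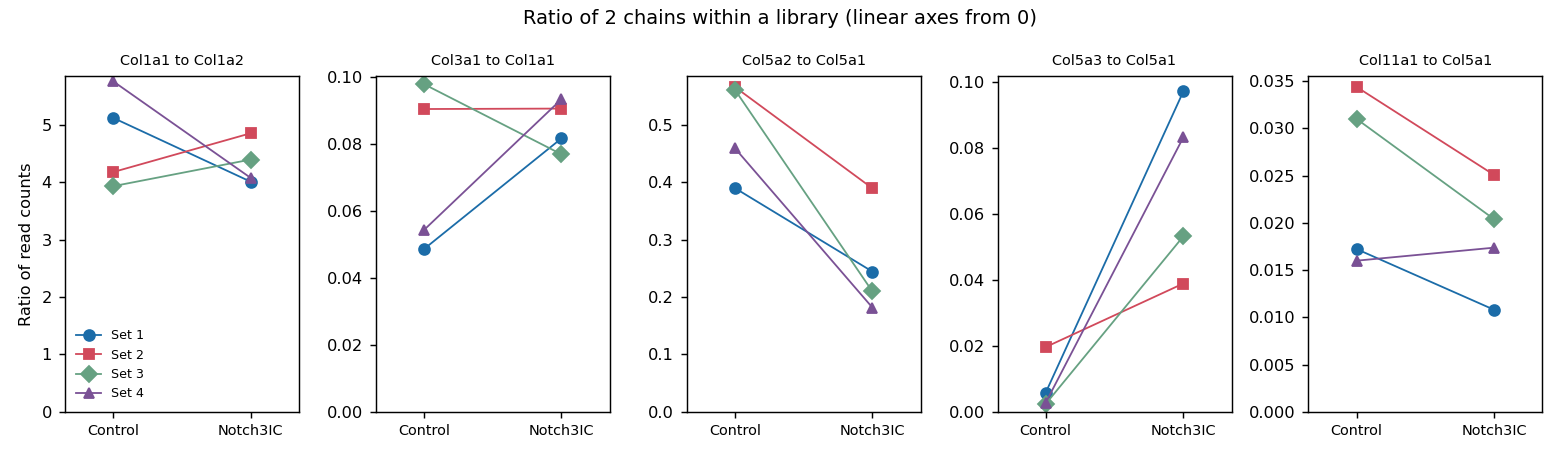
Ratio of read counts of 2 chains within a library (y axis, linear from 0, own scale per panel) in Control and Notch3IC; each line joins the libraries of 1 set. Col5a2 to Col5a1 falls in 4 of 4 sets and Col5a3 to Col5a1 climbs in 4 of 4 sets, while Col1a1 to Col1a2 goes up in 2 sets and down in 2.

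The members lie apart in the genome with 1 exception. On GRCm38 with GENCODE release M21, Col3a1 (chr1:45311538-45349706, + strand, 51 exons in its longest transcript) and Col5a2 (chr1:45374321-45503282, - strand, 54 exons) are neighbours whose 3′ ends are 24.6 kb apart. This pair showed log2 fold changes of 1.30 and 0.09. Col5a3 lies at chr9:20770050-20815067 on the - strand with 67 exons, Col1a1 at chr11:94936224-94953042 on the + strand with 51 exons, Col1a2 at chr6:4504814-4541544 on the + strand with 52 exons, and Col5a1 at chr2:27886425-28039514 on the + strand with 66 exons. No stretch of 50 or more bases was shared between the annotated transcripts of any 2 members. Exons of other genes overlapped 1.44% of the exon bases of Col3a1 and 2.50% of those of Col5a1, and 0 bases of the other members.

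The genes that make, cut, link and bind fibrillar collagen were read from 6 further lists with 64 genes, of which 52 were tested. In all, 12 were called higher and 0 lower, with a median log2 fold change of 0.41 over the 52. Where at least 10 counts in every library were required, 9 were called higher and 0 lower, with 374 calls over all genes. With the block, 15 were called higher and 2 lower. Over all genes tested, 3.40% were called higher and 0.740% lower with condition alone, and 5.19% and 2.53% with the block. Without Set 3 or Set 4, 0 of the 52 were called with condition alone, and 1 and 0 of all genes. Without 1 Control library of Sets 1 to 4 the count was 13, 14, 1 and 2, with 626, 519, 83 and 110 calls over all genes. Without 1 Notch3IC library of Sets 1 to 4 it was 12, 17, 8 and 6, with 442, 1007, 230 and 171 calls over all genes. With the block and without Sets 1 to 4 in turn it was 1, 22, 2 and 3, with 69, 1330, 81 and 159 calls over all genes.

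The enzymes and chaperones that work on procollagen inside the cell had 0 of 17 tested genes called in either direction, with a median log2 fold change of 0.26. The highest log2 fold changes among them belonged to P4ha3, a prolyl hydroxylase subunit, at 0.95 (edgeR adjusted p = 0.0556), and to Leprel2, a prolyl 3-hydroxylase, at 0.93 (edgeR adjusted p = 0.0359), both under the fold limit. The abundant chaperone Serpinh1 (HSP47), which binds folded procollagen, averaged 43705 ± 7291 normalized counts in the 4 Control libraries and 46097 ± 6923 in the 4 Notch3IC libraries (SD). Its log2 fold change was 0.08 (edgeR adjusted p = 0.864), and that of P4hb, a shared subunit of the prolyl hydroxylases, was -0.03 (edgeR adjusted p = 0.944).

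Outside the cell, proteinases remove the end pieces of procollagen. Of 6 tested genes, 2 rose and 0 fell. Bmp1, which cuts the C-terminal piece, had 2043, 1923, 1590 and 1388 normalized counts in Control and 7827, 2540, 5054 and 5599 in Notch3IC. It rose by 1.60 on the log2 scale (SE 0.31, edgeR adjusted p = 0.0359) and the groups did not overlap. Adamts2, which cuts the N-terminal piece, rose by 2.06 (SE 0.34, edgeR adjusted p = 0.0247). Its relative Adamts3 was called lower with the block alone, at -1.02 (edgeR adjusted p = 0.0657). Pcolce, which enhances C-terminal cleavage, had a log2 fold change of 0.36 (edgeR adjusted p = 0.363).

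Lysyl oxidases cross-link the fibrils. Of the 5 genes, all tested, Loxl1 rose by 2.28 (SE 0.44, edgeR adjusted p = 0.0356) and Loxl3 by 1.40 (SE 0.30, edgeR adjusted p = 0.0451) on the log2 scale. Lox averaged 15751 ± 3096 normalized counts in the 4 Control libraries and 13379 ± 6731 in the 4 Notch3IC libraries (SD), a log2 fold change of -0.24 (edgeR adjusted p = 0.756). The median over the 5 genes was 0.53.

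Among proteins that sit on or beside the fibrils, 5 of 12 tested genes rose and 0 fell, with a median log2 fold change of 1.39. With the block 7 were called higher, Ogn and Thbs2 being added. The small leucine-rich proteoglycans Bgn, Fmod and Prelp rose by 1.69, 7.13 and 6.26 on the log2 scale (edgeR adjusted p = 0.0464, 0.0151 and 0.0245). Fmod, which binds type I fibrils, went from 51.3 ± 24.3 to 7058 ± 4379 normalized counts (SD, n = 4). Postn, a matricellular protein, rose by 6.40 (edgeR adjusted p = 0.025) and Col14a1, a collagen that attaches to fibril surfaces, by 3.90 (edgeR adjusted p = 0.025). The related proteoglycan Dcn had a log2 fold change of -0.47 (edgeR adjusted p = 0.809), and in each of the 4 sets its level was the lower one in the Notch3IC library.

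Receptors of fibrillar collagen had 2 of 7 tested genes called, both higher, and with the block 3, Mrc2 being added. Itga1, whose product binds collagen as a dimer with that of Itgb1, had 25.8, 50.1, 40.2 and 21.4 normalized counts in Control and 408, 83.4, 860 and 625 in Notch3IC, and rose by 3.86 on the log2 scale (SE 0.67, edgeR adjusted p = 0.0266). Itga11, another collagen-binding α subunit, rose by 3.47 (SE 0.78, edgeR adjusted p = 0.0497). Itgb1 had a log2 fold change of 0.14 (edgeR adjusted p = 0.821), and the receptor kinases Ddr1 and Ddr2 had -0.27 and 0.13 (edgeR adjusted p = 0.398 and 0.646). Of 5 tested genes for collagen breakdown, the membrane collagenase Mmp14 rose by 1.27 (SE 0.30, edgeR adjusted p = 0.0604) and 0 fell, while the collagenase Mmp13 was called lower with the block alone, at -1.82 (edgeR adjusted p = 0.0297).

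Markers of other cell types were read beside the collagens, since connective tissue cells are the richest source of fibrillar collagen. Of 8 fibroblast markers, Thy1, Dpt, Pi16 and Lum had at most 10 counts in every library, and 2 of the 4 tested, Pdgfrb and Fap, rose, by 5.99 and 7.99 on the log2 scale (edgeR adjusted p = 0.0169 and 0.0247). Of the other 2 tested, Pdgfra had a log2 fold change of 0.49 and Dcn of -0.47. The summed level of the 8 was 10649 ± 5316 normalized counts (SD, n = 4) in Control and 17032 ± 7775 in Notch3IC, most of it Pdgfra, and in Set 2 it was the lower one in Notch3IC (15900 against 14372). Of 8 smooth muscle and mural cell markers, 4 were tested and Cspg4 rose, by 4.20 (edgeR adjusted p = 0.0169), with a summed level of 14326 ± 14595 in Control and 33923 ± 30083 in Notch3IC. With the block all 4 were called higher, Acta2, Tagln and Cnn1 being added, while the fibroblast markers called were still Pdgfrb and Fap. Over all genes tested, 3.40% were called higher with condition alone and 5.19% with the block. Whether these marker genes have a part in the collagen results was not tested.

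The labelled cell type was checked against mesothelial and ovarian surface markers, which were all 8 present. Their summed level, most of it Upk3b, was 56546 ± 20732 normalized counts (SD, n = 4) in Control and 24551 ± 9035 in Notch3IC, and 2 of the 8, Msln and Upk1b, fell by 2.60 and 2.19 on the log2 scale (edgeR adjusted p = 0.0625 and 0.0762). With the block, 6 of the 8 were called lower, Upk3b, Lrrn4, Bnc1 and Gpm6a being added. Over all genes tested, 0.740% were called lower with condition alone and 2.53% with the block. Block calls over all genes, 960 with every set, were 69, 1330, 81 and 159 without Sets 1 to 4. Of 8 epithelial markers, Krt8, Krt18, Krt19 and Cdh1 were tested and 0 were called with condition alone, while Krt19 was called lower with the block, at -2.10 (edgeR adjusted p = 0.0288). The others were scarce, with Epcam at 2 to 12 counts and Cldn4 at 0 to 3 counts per library. Summed levels of these 8 were 10034 ± 4119 and 4673 ± 1643. Of 9 cartilage and bone markers, 4 were tested and 0 were called with condition alone, while Sp7 was called lower with the block, at -1.81 (edgeR adjusted p = 0.0315). Their summed levels were 2072 ± 566 and 2907 ± 1329, most of it Runx2. Leukocyte markers were near absent, with Ptprc at 2 counts or fewer and Cd3e and Emr1 at 0 in each library. Their summed level was 90.1 ± 28.8 in Control and 88.4 ± 15.96 in Notch3IC, with Csf1r called higher from 8.67 to 24.7 normalized counts. Endothelial markers summed to 24.3 ± 9.97 and 37.3 ± 11.0, and 0 of the 2 tested were called.

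The genes whose log2 levels followed Col1a1 most closely over the 8 libraries were Angptl2, Ubtd1, Tanc2, 1190002H23Rik and Abtb2, with Pearson's r from 0.993 to 0.987 among 10995 genes compared. For Col3a1 they were Txndc16, Gnaq, 4930572J05Rik, Serpinf1 and Rbms3, with r from 0.969 to 0.966. These are descriptions over libraries that share the sets and the split into Control and Notch3IC. Angptl2 rose by 2.13 on the log2 scale (edgeR adjusted p = 0.0985), Serpinf1 by 1.70 (edgeR adjusted p = 0.0604), Txndc16 by 1.07 (edgeR adjusted p = 0.0823) and Rbms3 by 1.90 (edgeR adjusted p = 0.0247), and the other 6 were not called.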

How the data were processed

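RNA-seq of 4 Control and 4 Notch3IC lines was used. The authors deposited raw read counts per gene symbol, 1 table per library. Per the labels, reads were aligned with TopHat to mm9 and processed with Cufflinks and DESeq. Versions, annotation and strandedness are not given in the sources used here. Symbols were matched to GRCm38 with GENCODE release M21, and no coordinates were converted.

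Groups and set numbers came from the titles. Notch3IC was compared with Control in edgeR 4.0.16 with R 4.3.3 (TMM, filterByExpr by condition, robust quasi-likelihood test), with Benjamini-Hochberg adjustment over all 12430 genes tested. The limits for a call (0.1 for the adjusted p, 1 for the size of the log2 fold change) are those of the study. Each SE of an edgeR fold change was derived from its test, as the size of the log2 fold change over the square root of F. The SE given with DESeq2 is the estimate of that tool. The script was tested on simulated data. Library totals of 15524262 to 28208072 counts and a biological coefficient of variation of 26.3% (14.1% with the set as a block) set the precision.

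To give normalized counts, each count was scaled by its library size times the TMM factor and brought to the mean library size. Ratios within sets used a pseudocount of 0.5. The length scale was changed from all exon bases to the longest transcript after the data were seen, because the former held long retained introns. Set numbers pair the libraries: each is a matched infection, and deviations from group means correlated at 0.80, 0.40, 0.57 and 0.41 between the libraries of Sets 1, 2, 3 and 4. Libraries of different sets correlated at -0.50 to 0.37.

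Members, gene lists and tests were chosen with earlier results of these data known. Genes named are the members, the listed pathway genes and markers that were called or are most abundant, and the 5 genes most alike in level to Col1a1 and to Col3a1 (Pearson correlation of edgeR log2 CPM, mean of at least 1). Others named in the pathway lists were chosen after their values were seen. Alternatives were DESeq2 1.42.0, other scalings and filters, the block, an adjusted p under 0.05, no fold limit, another length scale, and leaving out libraries or sets. The block with each set left out was added after the data were seen.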

Additional observations from a re-analysis of the deposited data

Results flagged for a closer look

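Among 40 groups of 4 libraries searched, 3 held a library far from its group, where chance gives about 2. The Set 1 Control library had 26501 normalized counts of Col5a1, against 10774 to 12639 in the other Control libraries. The Set 2 Control library had 423 normalized counts of Col24a1, against 48.6 to 91.9. The Set 3 Control library had 70.8 normalized counts of Notch3, against 38.7 to 42.0.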

How the results depend on the processing

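The 2 fibrillar collagens called became 4 with DESeq2 (Col1a2 and Col5a1 added), 6 with the replicate block and 1 (Col5a3) at an adjusted p under 0.05, and stayed at 2 with the other scalings, filters and no fold limit. Leaving out 1 library or 1 set gave 0 to 5, with 0 without Control 3, Control 4, Notch3IC 4, Set 3 or Set 4, 1 without Notch3IC 1 or Notch3IC 3, and 5 without Notch3IC 2. With the block these were 0 without Set 1, Set 3 or Set 4 and 6 without Set 2. Leaving out libraries or sets lowers the number of samples. All genes called, 515, became 900 with DESeq2, 960 with the replicate block, 338 at an adjusted p under 0.05, 832 with no fold limit, 0 to 1007 with 1 library or set left out, and 69, 1330, 81 and 159 with the block and without Sets 1 to 4. The 12 collagen pathway genes became 9 where at least 10 counts in every library were required, with 374 of all genes called. They became 0 to 17 with 1 library or set left out, and 1, 22, 2 and 3 with the block and without Sets 1 to 4. Col5a2 turned to -0.06 without Control 4, -0.21 without Notch3IC 1, -0.01 without Set 1, and -0.0059 and -0.020 with the block and without Set 1 and Set 4 (range with 1 library or set left out -0.21 to 0.30). Col24a1 turned to 0.18 with the block, to 1.10, 0.21, 0.22 and 0.05 without Control 2, Notch3IC 1, Notch3IC 3 and Notch3IC 4, to 0.38 and 0.02 without Set 2 and Set 3, and to 0.044, 0.37 and 0.34 with the block and without Sets 1, 2 and 3 (range -0.74 to 1.10). Neither gene was called in any of these fits. The log2 Col1a1 to Col1a2 difference turned to 0.0081 without Set 4 (range -0.23 to 0.0081). For the ratios, the paired test over sets has a smallest p of 0.125 and cannot pass. The fold changes of the 7 other members kept their sign in every fit run, and the scalings moved the median of all genes by less than 0.1. Col11a2 was too scarce to pass the edgeR filter, and DESeq2, which tested it, did not call it (0.46, SE 1.09, DESeq2 adjusted p = 0.883). The lowest Control counts were 31 for Col5a3 and 49 for Col24a1. The causes of these differences were not tested.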
